A study of Homo sapiens with 8 samples.

Results

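10 genes of metal handling were examined across KLHL23 knockdown and control cells of a pair of human hepatoma lines: the metallothioneins MT1E, MT1F, MT1G, MT1H, MT1M, MT1X and MT2A, the zinc transporters SLC30A1 and SLC39A10, and the zinc sensor MTF1. Every probe set that the platform annotation pairs with exactly 1 of these symbols was taken, which gave 18 of the 54675 probe sets and 10 of the 19775 genes measured. The 7 metallothionein genes have 11 of these probe sets, 9 of them ending in _x_at, the suffix Affymetrix gives to probe sets whose probes can also match other transcripts. The other 3 genes have 7 probe sets, none ending in _x_at. No filter on level was applied, and all 10 genes were fitted. The genes were chosen by their shKLHL23 minus shLuc values in these same arrays, so their knockdown differences are given as descriptions with no p-value.

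The 4 groups were Hep-3B shKLHL23, Hep-3B shLuc, Huh7 shKLHL23 and Huh7 shLuc, each with 2 arrays labelled replicates 1 and 3. Hep-3B and Huh7 are established lines grown from human liver tumours, shKLHL23 is a short hairpin RNA against KLHL23, a Kelch-like protein, and shLuc is a hairpin against luciferase, which human cells lack. All 4 groups were cultured with 10% fetal bovine serum, given hairpin lentivirus (multiplicity of infection 2) and put under puromycin starting 48 hours later. Only 1 knockdown hairpin name is given, and separate cultures are not stated for the replicates, so the p-values below measure the spread between these arrays, which may be technical.

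Metallothioneins are small, cysteine-rich proteins that bind zinc, copper and cadmium, and the liver is one of their main sites. Zinc enters the cytosol through importers of the SLC39 family and leaves the cytosol through exporters of the SLC30 family. When free zinc is high, the transcription factor MTF1 binds short DNA elements called metal response elements and raises transcription of metallothionein genes and of SLC30A1, the zinc exporter of the plasma membrane. Glucocorticoids, interleukin 6 and oxidants also raise metallothionein transcription in liver cells.

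Promoter sequences are shown because metal response elements are the best known control of these genes. RefSeq windows on GRCh38.p14 were given for 6 of the 10 genes, and the 250 bases before the transcription start are printed 5′ to 3′ on the gene's strand. Capitals mark each match, on either strand, to the core of the metal response element, spelled TGCACNC or TGCGCNC, and no printed matches overlap. The windows lie at chr16:56608334-56608583 (plus strand) for MT2A, chr16:56669564-56669813 (plus strand) for MT1H, chr16:56682220-56682469 (plus strand) for MT1X and chr1:211579162-211579411 (minus strand) for SLC30A1.
MT2A: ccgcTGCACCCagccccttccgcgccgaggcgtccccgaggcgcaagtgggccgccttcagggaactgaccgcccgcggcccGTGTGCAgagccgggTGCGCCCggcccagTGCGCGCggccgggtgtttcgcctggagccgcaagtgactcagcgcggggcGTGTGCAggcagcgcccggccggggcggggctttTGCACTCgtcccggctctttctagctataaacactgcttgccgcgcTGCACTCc
MT1H: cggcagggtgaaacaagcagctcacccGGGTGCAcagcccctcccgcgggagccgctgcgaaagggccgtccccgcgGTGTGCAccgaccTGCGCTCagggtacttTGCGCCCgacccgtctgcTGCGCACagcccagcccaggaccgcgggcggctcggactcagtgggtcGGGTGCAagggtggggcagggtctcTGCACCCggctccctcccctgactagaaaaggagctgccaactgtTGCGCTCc
MT1X: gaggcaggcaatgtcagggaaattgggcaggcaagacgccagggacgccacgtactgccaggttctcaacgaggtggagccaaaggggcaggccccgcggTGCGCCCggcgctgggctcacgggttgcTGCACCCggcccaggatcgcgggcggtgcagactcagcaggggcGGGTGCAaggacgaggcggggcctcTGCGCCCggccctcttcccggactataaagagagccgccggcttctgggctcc
SLC30A1: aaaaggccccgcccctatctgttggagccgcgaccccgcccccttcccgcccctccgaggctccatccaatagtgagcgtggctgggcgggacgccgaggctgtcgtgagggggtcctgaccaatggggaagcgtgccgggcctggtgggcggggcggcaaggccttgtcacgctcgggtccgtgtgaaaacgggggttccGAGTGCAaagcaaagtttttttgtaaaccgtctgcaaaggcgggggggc
MT2A had 7 matches in the bases shown and 8 in its whole window of 300 bases, which runs 50 bases past the start. For MT1H all 8 matches lay in the bases shown, and for MT1X all 4 did. Of 35116 windows of this length, 29.6% held at least 1 match, 0.601% held 4 or more and 0.0199% held 8 or more. SLC30A1 had 2 matches in its window, as many as 8.6% of windows have or exceed, and 1 of them lay in the bases shown. SLC39A10 had 0 matches in 1 of its windows and 1 in the other, and MTF1 had 0. A match describes these letters only and does not show that MTF1 was bound there in these cells.

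KLHL23 itself, the target of the hairpin, measured 7.21 and 6.15 on the log2 scale in Hep-3B shKLHL23 arrays 1 and 3, against 7.81 and 7.84 in Hep-3B shLuc arrays. In Huh7 it measured 5.78 and 5.88 in shKLHL23 arrays, against 7.89 and 7.87 in shLuc arrays. The difference was -1.14 (SE 0.27, limma adjusted p = 0.0833) in Hep-3B and -2.05 (SE 0.27, limma adjusted p = 0.00363) in Huh7, so the fall passed the test in Huh7 and not in Hep-3B. As a share of the control mean, KLHL23 stood at 65.5% and 31.4% in the Hep-3B shKLHL23 arrays 1 and 3, and at 23.4% and 25% in the Huh7 ones. Hepatocyte markers, 12 of 14 measured, averaged 11.8 to 11.9 in Hep-3B shKLHL23 and 11.6 in Hep-3B shLuc arrays, and 11.5 to 11.8 in Huh7 shKLHL23 and 11.6 in Huh7 shLuc arrays. The marker means of blood cells (7 genes) were 5.47 in both Hep-3B shKLHL23 arrays against 5.33 and 5.34 in the shLuc arrays, and 5.72 and 5.74 in Huh7 shKLHL23 against 5.71 and 5.72 in Huh7 shLuc arrays. The 3′ minus 5′ signal of ACTB, a sign of RNA quality, was 0.737 and 0.753 in Hep-3B shKLHL23 against 0.442 and 0.537 in shLuc arrays, and 0.525 and 0.546 in Huh7 shKLHL23 against 0.873 and 0.833 in shLuc arrays. That of GAPDH was 0.2225 and 0.236 in Hep-3B shKLHL23 against 0.1174 and 0.1198 in shLuc arrays. In Huh7 the GAPDH values were 0.1477 and 0.1121 in shKLHL23 against 0.1318 and 0.0887 in shLuc arrays. The part of these values in the results below was not tested. Markers of fibroblasts and stellate cells (9 genes), endothelium (8) and blood cells gave 0 calls by limma in either line, with 0 to 3 genes at an unadjusted p under 0.05 per list and line. Of all genes, 17.7% in Hep-3B and 27.5% in Huh7 had an unadjusted p under 0.05. Among the 7 blood cell markers, PTPRC, the defining marker of leukocytes, measured 2.33 to 2.63 over the 8 arrays, below their lower quartiles. LYZ, lysozyme, measured 11.1 to 12.4, and CD14 measured 4.31 to 5.05 over the Hep-3B arrays and 6.30 to 6.75 over the Huh7 arrays. CD79A gave 5.74 and 5.79 in Hep-3B shKLHL23 against 5.18 and 5.28 in Hep-3B shLuc arrays. In Huh7 it gave 5.12 and 4.84 in shKLHL23 against 5.01 and 4.65 in shLuc arrays. ACTA2, of the fibroblast and stellate cell list, measured 9.06 to 9.36 over the Hep-3B arrays and 4.68 to 5.15 over the Huh7 arrays. PECAM1, of the endothelial list, measured 6.87 to 7.18 and 5.25 to 5.97. ALB, albumin, measured 13.5 to 13.6.

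All 7 metallothionein genes were higher in knockdown than in control cells of both lines, and in each line the knockdown and control arrays did not overlap at any of their 11 probe sets. Of all probe sets, 25.2% in Hep-3B and 25.5% in Huh7 also had both knockdown arrays above both control arrays. The 9 _x_at probe sets among the 11 may read each other's transcripts, so the 7 genes are not 7 separate readings. Only the probe set of MT1M and a dim one of MT1G lack that suffix. MT2A, a metallothionein gene expressed in most tissues, measured 11.98 and 12.43 in Hep-3B shKLHL23 arrays against 10.98 and 10.90 in Hep-3B shLuc arrays, and 11.52 and 11.47 in Huh7 shKLHL23 arrays against 10.02 and 9.93 in Huh7 shLuc arrays. Both knockdown arrays lay above both controls in each line. This was a difference of 1.27 (SE 0.14, 2.4-fold) in Hep-3B and 1.51 (SE 0.14, 2.86-fold) in Huh7. These are levels in bulk RNA, in which a larger share of expressing cells and more transcript per cell cannot be told apart.

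MT1E, the protein-coding metallothionein gene next to MT2A, has a pair of _x_at probe sets. The brighter gave 11.89 and 12.36 in Hep-3B shKLHL23 against 10.52 and 10.42 in Hep-3B shLuc arrays, and 11.17 and 11.24 in Huh7 shKLHL23 against 9.41 and 9.50 in Huh7 shLuc arrays. It differed by 1.65 (SE 0.14, 3.14-fold) in Hep-3B and 1.75 (SE 0.14, 3.36-fold) in Huh7. The other probe set gave 10.77 and 11.22 in Hep-3B shKLHL23 against 9.44 and 9.28 in Hep-3B shLuc arrays, and 10.15 and 10.08 in Huh7 shKLHL23 against 8.53 and 8.44 in Huh7 shLuc arrays, and differed by 1.63 in each line. Both probe sets of MT1E moved alike.

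MT1F, also an _x_at pair, differed more between its probe sets. The probe set with the higher mean, which stands for the gene, gave 10.74 and 11.36 in Hep-3B shKLHL23 against 9.14 and 9.06 in Hep-3B shLuc arrays, and 10.29 and 10.22 in Huh7 shKLHL23 against 8.55 and 8.66 in Huh7 shLuc arrays. Its difference was 1.95 (SE 0.18, 3.85-fold) in Hep-3B and 1.65 (SE 0.18, 3.14-fold) in Huh7. The other gave 10.34 and 10.98 in Hep-3B shKLHL23 against 8.05 and 8.09 in shLuc arrays, and 10.10 and 10.02 in Huh7 shKLHL23 against 8.30 and 8.52 in shLuc arrays. Its difference was 2.60 (SE 0.18, 6.04-fold) in Hep-3B, larger than for the probe set that stands for the gene, and 1.65 in Huh7, the same as for it.

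MT1G is read by an _x_at probe set and by a dim probe set without that suffix. The _x_at probe set gave 10.90 and 11.49 in Hep-3B shKLHL23 against 9.58 and 9.43 in Hep-3B shLuc arrays, and 10.37 and 10.38 in Huh7 shKLHL23 against 8.52 and 8.33 in Huh7 shLuc arrays, a difference of 1.69 (SE 0.17, 3.23-fold) in Hep-3B and 1.95 (SE 0.17, 3.86-fold) in Huh7. The dim probe set gave 3.16 and 3.19 in Hep-3B shKLHL23 against 2.94 and 3.01 in Hep-3B shLuc arrays, and 3.24 and 3.19 in Huh7 shKLHL23 against 2.89 and 3.11 in Huh7 shLuc arrays. Its difference was 0.20 (SE 0.11) in Hep-3B and 0.21 (SE 0.11) in Huh7, at values near the lower quartiles of the arrays (3.08 to 3.12). Both probe sets therefore gave the same sign and different sizes.

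MT1H, whose promoter is printed above, gave 11.21 and 11.84 in Hep-3B shKLHL23 against 9.95 and 9.78 in Hep-3B shLuc arrays, and 10.75 and 10.68 in Huh7 shKLHL23 against 8.95 and 9.05 in Huh7 shLuc arrays. Its difference was 1.66 (SE 0.18, 3.16-fold) in Hep-3B and 1.71 (SE 0.18, 3.28-fold) in Huh7. MT1X, at the end of the cluster, has an _x_at pair, and the probe set that stands for the gene gave 11.57 and 12.05 in Hep-3B shKLHL23 against 10.19 and 10.09 in Hep-3B shLuc arrays, and 11.02 and 11.01 in Huh7 shKLHL23 against 9.25 and 9.42 in Huh7 shLuc arrays. That is a difference of 1.67 (SE 0.15, 3.19-fold) in Hep-3B and 1.68 (SE 0.15, 3.21-fold) in Huh7. Its other probe set gave 10.36 and 11.05 in Hep-3B shKLHL23 against 8.87 and 8.66 in Hep-3B shLuc arrays, and 10.09 in both Huh7 shKLHL23 arrays against 8.63 and 8.78 in Huh7 shLuc arrays. This one differed by 1.94 in Hep-3B and 1.38 in Huh7.

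MT1M is read by a single probe set without the _x_at suffix. It gave 5.57 and 6.75 in Hep-3B shKLHL23 arrays 1 and 3 against 2.66 and 2.58 in Hep-3B shLuc arrays, and 6.28 and 6.14 in Huh7 shKLHL23 against 4.13 and 4.60 in Huh7 shLuc arrays. The difference was 3.54 (SE 0.32) in Hep-3B and 1.84 (SE 0.32, 3.59-fold) in Huh7. In Hep-3B it was 2.95 without shKLHL23 replicate 3 and 4.13 without shKLHL23 replicate 1. The Huh7 difference was smaller by 1.69 (SE 0.45), a description with no test. The Hep-3B control values lay below the lower quartiles of their arrays (3.08 and 3.10), where RMA compresses differences, so no fold is given for Hep-3B.

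**Figure D1:**
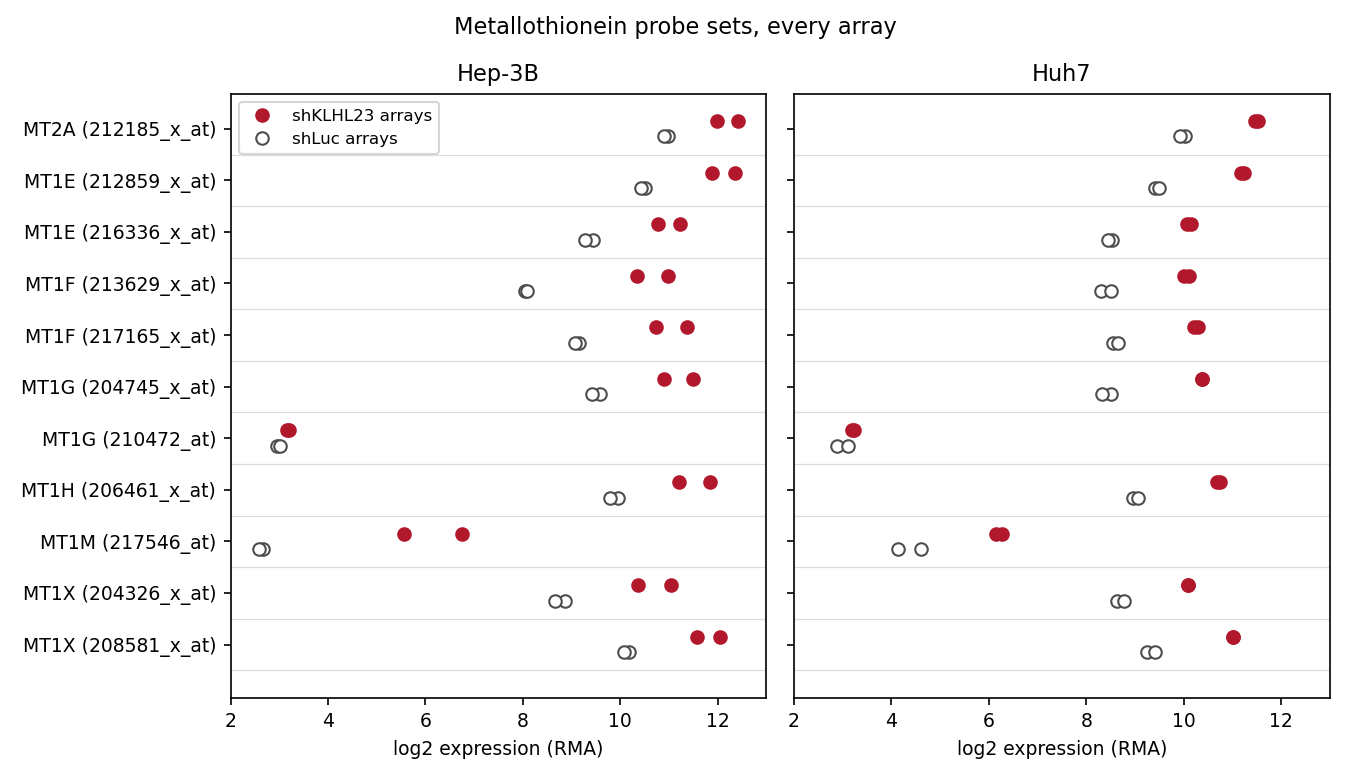
Log2 expression (RMA, horizontal axis) of the 11 metallothionein probe sets in every array, Hep-3B on the left and Huh7 on the right. Filled points are shKLHL23 arrays and open points shLuc arrays, 2 of each in a row, and in every row both filled points lie right of both open points.

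The plot of single arrays shows that the points of the knockdown arrays were spread more widely in Hep-3B than in Huh7. Across the 9 _x_at probe sets, replicate 3 exceeded replicate 1 by 0.44 to 0.69 in Hep-3B shKLHL23 (higher for 9 of 9), and the difference was -0.22 to 0.04 in Hep-3B shLuc. In Huh7 it ran from -0.08 to 0.07 in shKLHL23 arrays and from -0.18 to 0.21 in shLuc arrays. For comparison, the SD of that replicate difference over all genes was 0.222 in Hep-3B shKLHL23, 0.157 in Hep-3B shLuc, 0.25 in Huh7 shKLHL23 and 0.171 in Huh7 shLuc. The Hep-3B shKLHL23 array with the higher metallothionein values, replicate 3, was also the one with the lower KLHL23 value. With 2 arrays, whether these move together was not tested.

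Of the 10 genes, 7 passed limma's test as higher in Hep-3B shKLHL23 than in shLuc cells and 0 as lower, where 0.536% of all genes were called higher and 0.157% lower. In Huh7 the counts were again 7 higher and 0 lower, where 5.75% of all genes were called higher and 7.73% lower. Nothing is read from these counts, since the same contrasts led to the choice of genes. The Hep-3B count was 0 when either Hep-3B shLuc array was left out, a fit in which the lone control array is assumed to vary like the other groups, and the Huh7 count was 6 without Huh7 shKLHL23 replicate 1 or without Huh7 shLuc replicate 1. Without the _x_at probe sets, only MT1M and MT1G, by its dim probe set, were still measured among the metallothioneins. Of these MT1M was called, in both lines. The median of the 10 genes was 1.66 in Hep-3B and 1.67 in Huh7, against 0.02 in Hep-3B and -3e-04 in Huh7 over all genes. For the 9 _x_at probe sets the Hep-3B differences ran from 1.27 to 2.60 with a median of 1.67, and the Huh7 differences from 1.38 to 1.95 with a median of 1.65. At the level of probe sets, 10 of 18 were called higher in each line, where 0.492% of all probe sets were in Hep-3B and 3.83% in Huh7. None of the 18 was called lower in Hep-3B (0.647% of all probe sets), and 1, of SLC30A1, was called lower in Huh7 (4.67% of all probe sets).

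**Figure D2:**
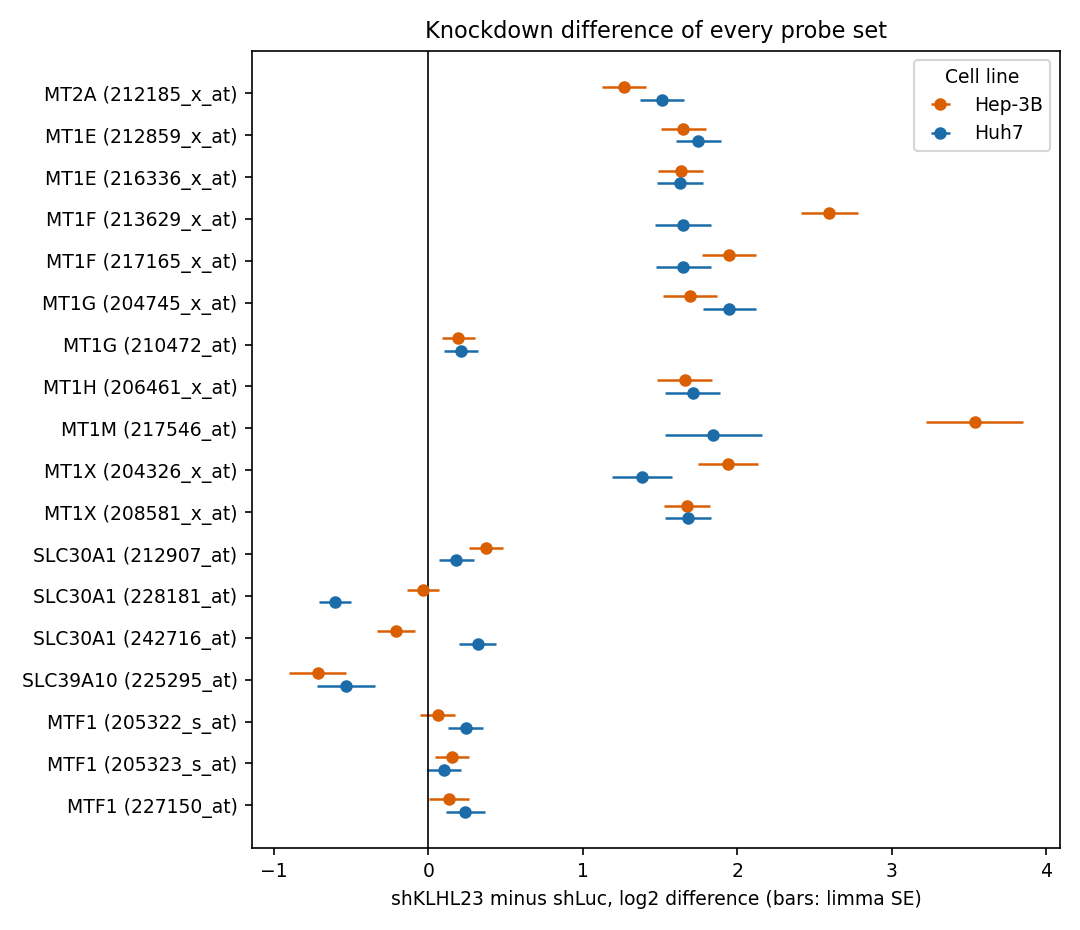
Knockdown minus control difference (log2, horizontal axis) of all 18 probe sets, points with limma standard errors, Hep-3B in orange and Huh7 in blue. All metallothionein probe sets except the dim one of MT1G lie between 1.27 and 3.54, and the 7 probe sets of SLC30A1, SLC39A10 and MTF1 lie between -0.72 and 0.37.

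**Figure D3:**
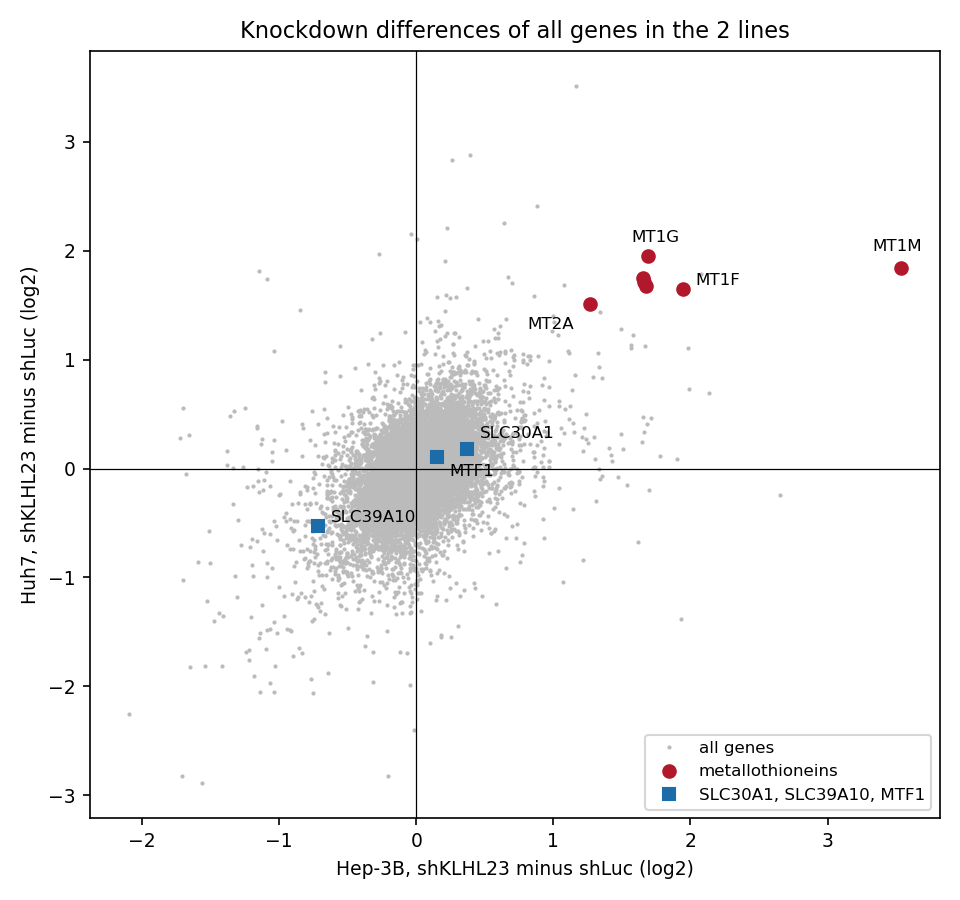
Knockdown minus control difference (log2) in Hep-3B (horizontal axis) and Huh7 (vertical axis) for all 19775 genes (grey), the 7 metallothionein genes (red circles) and SLC30A1, SLC39A10 and MTF1 (blue squares). The metallothioneins lie in the upper right, with MT1M farthest to the right at 3.54 and 1.84.

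For the 7 metallothionein genes, the Huh7 minus Hep-3B difference of the knockdown differences lay between -1.69 for MT1M and 0.26 for MT1G. None of the 10 genes was called in that comparison, in which 0.445% of all genes were called higher and 0.814% lower, and as it is built from the same contrasts nothing is read from it.

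The zinc exporter SLC30A1 and the importer SLC39A10 were chosen on the knockdown contrasts, so their differences are descriptions and no test is read. The SLC30A1 probe set that stands for the gene gave 10.44 and 10.67 in Hep-3B shKLHL23 against 10.17 and 10.20 in Hep-3B shLuc arrays, and 10.08 and 10.22 in Huh7 shKLHL23 against 9.94 and 9.99 in Huh7 shLuc arrays. Its difference was 0.37 (SE 0.10, 1.29-fold) in Hep-3B and 0.18 (SE 0.10, 1.13-fold) in Huh7. The second SLC30A1 probe set gave 9.18 and 9.03 in Hep-3B shKLHL23 against 9.14 and 9.13 in Hep-3B shLuc arrays, and 8.55 and 8.43 in Huh7 shKLHL23 against 9.11 and 9.07 in Huh7 shLuc arrays, differences of -0.03 and -0.60 (SE 0.10). The third, dim one gave 3.09 and 3.11 in Hep-3B shKLHL23 against 3.40 and 3.21 in Hep-3B shLuc arrays, and 2.96 and 3.11 in Huh7 shKLHL23 against 2.83 and 2.60 in Huh7 shLuc arrays, differences of -0.21 and 0.32 (SE 0.12). The 3 probe sets thus differed in direction, and SLC30A1 has no single direction here.

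SLC39A10 gave 7.88 and 7.32 in Hep-3B shKLHL23 against 8.25 and 8.38 in Hep-3B shLuc arrays, and 7.24 and 7.62 in Huh7 shKLHL23 against 7.91 and 8.01 in Huh7 shLuc arrays. Its difference was -0.72 (SE 0.19, 1.64-fold lower) in Hep-3B and -0.53 (SE 0.19, 1.44-fold lower) in Huh7. Both knockdown arrays lay below both controls in each line, as they did for 24.5% of all probe sets in Hep-3B and 23.7% in Huh7, a description with no test. MTF1, the zinc sensor, has 3 probe sets, whose values ran from 6.66 to 6.88 in Hep-3B shKLHL23 and from 6.63 to 6.70 in Hep-3B shLuc arrays, and from 6.55 to 7.03 in Huh7 shKLHL23 and from 6.44 to 6.80 in Huh7 shLuc arrays. The probe set that stands for MTF1 gave 6.74 and 6.87 in Hep-3B shKLHL23 against 6.64 and 6.67 in Hep-3B shLuc arrays, and 6.91 and 6.75 in Huh7 shKLHL23 against 6.65 and 6.80 in Huh7 shLuc arrays. For this probe set the groups overlapped in Huh7 and did not in Hep-3B, and the differences were 0.15 in Hep-3B and 0.10 in Huh7 (SE 0.10 each). The other MTF1 probe sets differed by 0.06 and 0.13 in Hep-3B and by 0.24 each in Huh7 (SE 0.11 and 0.13). Their knockdown arrays lay above both controls in each line, as for 25.2% of all probe sets in Hep-3B and 25.5% in Huh7.

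The control cells of the lines differed in metallothionein levels, a contrast that did not choose the genes but shares its arrays with both knockdown comparisons. Of the 10 genes, 5 were lower and 1 higher in Huh7 shLuc than in Hep-3B shLuc cells by limma with Benjamini-Hochberg adjustment, where 14.9% of all genes were called lower and 17.7% higher. MT2A was lower by 1.95-fold (difference -0.96, SE 0.14, limma adjusted p = 0.000738), MT1E by 2.02-fold (-1.02, SE 0.14, limma adjusted p = 0.00067) and MT1G by 2.11-fold (-1.08, SE 0.17, limma adjusted p = 0.00135). MT1H was lower by 1.82-fold (-0.86, limma adjusted p = 0.00552) and MT1X by 1.74-fold (-0.80, limma adjusted p = 0.003). These 5 calls rest on _x_at probe sets. With those left out, MT2A, MT1E, MT1F, MT1H and MT1X have no probe set and could not be called. Of the genes still measured, 0 were called lower. The remaining MT1G probe set gave 0.0217 (limma adjusted p = 0.907). Its values lie near the lower quartiles of the arrays, so it cannot decide whether MT1G differed. MT1M went the other way and was higher in Huh7 shLuc (difference 1.75, SE 0.32, limma adjusted p = 0.00283). It gave 4.13 and 4.60 in Huh7 shLuc against 2.66 and 2.58 in Hep-3B shLuc arrays. The Hep-3B values lay below the lower quartiles of their arrays (3.08 and 3.10), where RMA compresses differences, so no fold is given. MT1F (-0.50, limma adjusted p = 0.0597), SLC30A1 (-0.22, limma adjusted p = 0.156), SLC39A10 (-0.36, limma adjusted p = 0.197) and MTF1 (0.07, limma adjusted p = 0.666) did not pass.

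Among probe sets, 7 of the 18 were lower and 1 higher in Huh7 shLuc, where 12.9% of all probe sets were lower and 12.9% higher. The second probe set of MT1F gave 0.34 (limma adjusted p = 0.231) and that of MT1X -0.06 (limma adjusted p = 0.88), so the lower Huh7 level was not seen at every probe set of these genes. Ordered by level, 7 of the 9 _x_at probe sets ran from Hep-3B shKLHL23 through Huh7 shKLHL23 and Hep-3B shLuc to Huh7 shLuc with no overlap between neighbouring groups. The 2 exceptions were one probe set each of MT1F and MT1X. For MT1M the shKLHL23 groups of the lines overlapped, and Hep-3B shLuc was lowest.

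**Figure D4:**
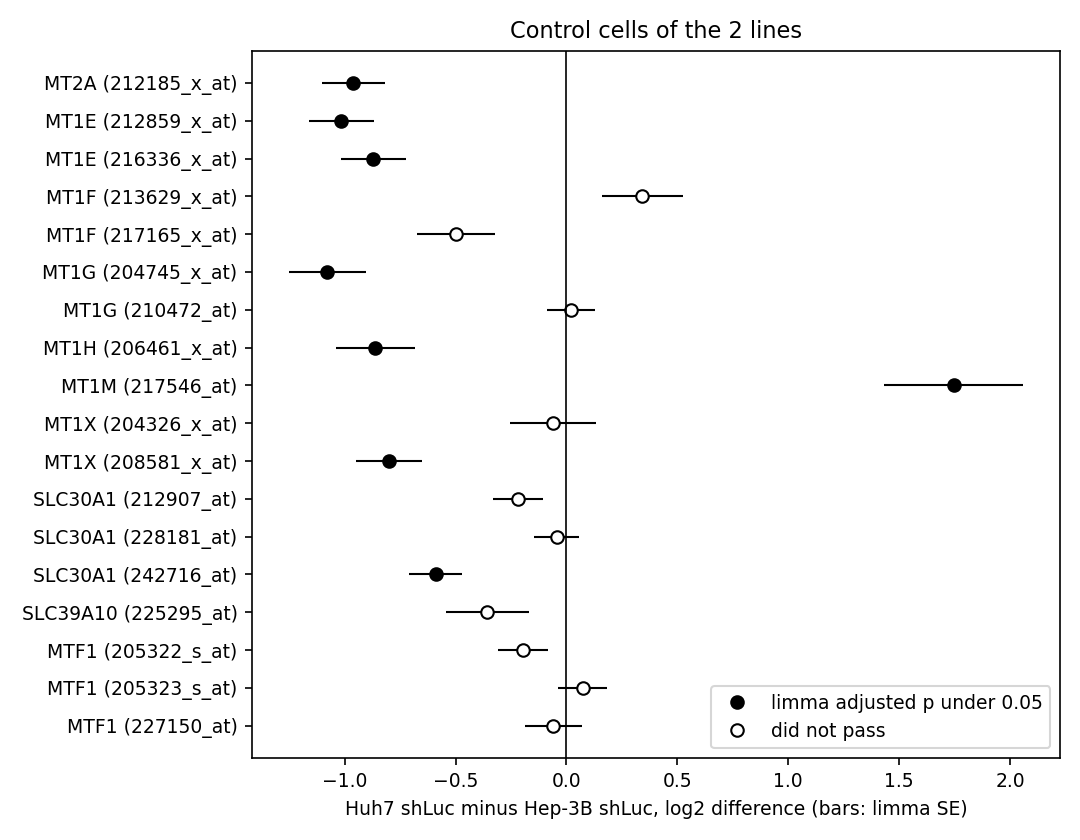
Huh7 shLuc minus Hep-3B shLuc difference (log2, horizontal axis) of the 18 probe sets with limma standard errors. Filled points passed limma's adjusted threshold of 0.05 and open points did not, and 7 filled points lie left of 0 and 1, of MT1M, right of it.

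Among other metallothionein genes, 3 of 10 were measured by a probe set paired with 1 symbol. MT1HL1, a gene resembling MT1H read by an _x_at probe set, differed by 1.34 (SE 0.13) in Hep-3B and by 1.44 (SE 0.13) in Huh7. That probe set may read transcripts of the metallothioneins chosen on these contrasts. Its differences are therefore descriptions with no test, and not a further separate reading. It gave 11.48 and 11.90 in Hep-3B shKLHL23 against 10.39 and 10.30 in Hep-3B shLuc arrays, and 11.02 and 11.11 in Huh7 shKLHL23 against 9.61 and 9.65 in Huh7 shLuc arrays. The brain-type MT3 differed by 0.24 in Hep-3B (limma adjusted p = 0.496) and 0.32 in Huh7 (limma adjusted p = 0.242), and MT4, known from squamous epithelium, by 0.32 (limma adjusted p = 0.168) and 0.07 (limma adjusted p = 0.727). The protein-coding genes of the cluster on chromosome 16 are, in RefSeq order, MT4, MT3, MT2A, MT1E, MT1M, MT1A, MT1B, MT1F, MT1G, MT1H and MT1X.

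The lists below were set beside the 10 genes. The calls among all list genes in Huh7, 22 with every array, numbered 4 without Huh7 shLuc replicate 1, 6 without Huh7 shLuc replicate 3 and 14 without Huh7 shKLHL23 replicate 1. In Hep-3B, 2 with every array, the calls numbered 17 without shKLHL23 replicate 1, 1 without shKLHL23 replicate 3 and 0 without either shLuc array. The counts below stand against 0.536% of all genes called higher, 0.157% called lower and 17.7% at an unadjusted p under 0.05 in Hep-3B, and 5.75% called higher and 7.73% called lower in Huh7.

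Zinc exporters of the SLC30 family, 9 measured beside SLC30A1, had 0 calls by limma in Hep-3B (2 at an unadjusted p under 0.05) and 1 higher and 2 lower in Huh7, with medians of 0.0067 in Hep-3B and 0.08 in Huh7. SLC30A10, a manganese exporter, fell in Huh7 by 1.48 (limma adjusted p = 0.0228), with 6.68 and 7.69 in shKLHL23 against 8.57 and 8.77 in shLuc arrays, and differed by -0.92 (SE 0.34, limma adjusted p = 0.205) in Hep-3B. SLC30A5, a zinc transporter of the secretory pathway, rose in Huh7 by 0.60 (limma adjusted p = 0.00664), and SLC30A4 fell by 0.37 (limma adjusted p = 0.033) at values under 4. The 13 other SLC39 importers had 0 calls by limma in Hep-3B (3 at an unadjusted p under 0.05) and 2 higher in Huh7, SLC39A5 (0.53, limma adjusted p = 0.0165) and SLC39A11 (0.37, limma adjusted p = 0.039), with medians of 0.12 and 0.18. In Hep-3B, SLC39A11 differed by 0.48 (limma adjusted p = 0.0676). SLC39A8, a zinc and manganese importer, was higher in Huh7 shLuc than in Hep-3B shLuc cells (difference 3.31, limma adjusted p = 5.24e-07). It gave 6.71 and 6.79 in Huh7 shLuc against 3.60 and 3.28 in Hep-3B shLuc arrays. The Hep-3B values lay closer to the lower quartiles of their arrays (3.08 and 3.10) than to the medians (4.57 and 4.58), so no fold is given.

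Of 14 copper genes, 0 were called by limma in Hep-3B (4 at an unadjusted p under 0.05) and 1 in Huh7, with medians of 0.11 and 0.20. This was ATOX1, a copper chaperone, which rose by 0.77 (limma adjusted p = 0.00554), with 9.99 and 9.91 in Huh7 shKLHL23 against 9.15 and 9.22 in Huh7 shLuc arrays. CP, the plasma copper protein ceruloplasmin, differed by -1.70 in Hep-3B (limma adjusted p = 0.136), with 5.87 and 4.39 in shKLHL23 against 6.86 and 6.80 in shLuc arrays. STEAP3, a metalloreductase, differed by 0.75 (limma adjusted p = 0.0543) in Hep-3B.

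**Figure D5:**
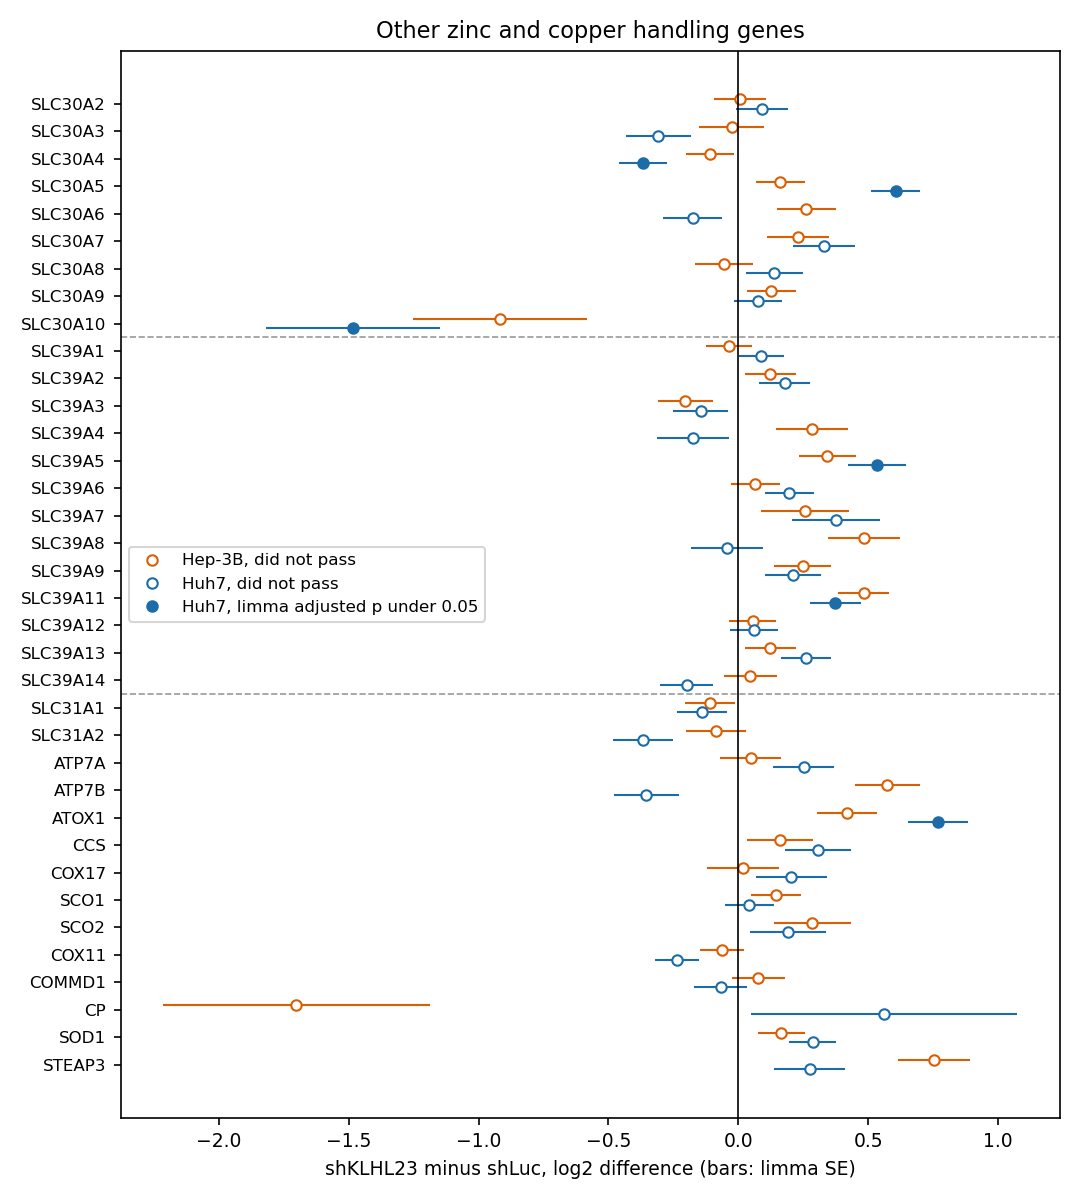
Knockdown minus control difference (log2, horizontal axis) of the other SLC30 genes, the other SLC39 genes and the copper genes, from top to bottom, with limma standard errors. Filled points passed limma's adjusted threshold of 0.05, and all 6 of them are Huh7 points, the one farthest from 0 being SLC30A10 at -1.48.

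Heavy metals and oxidants, glucocorticoids and interleukin 6 are other known inducers of metallothioneins, and their response genes were counted. Of 13 heavy metal and oxidant stress genes, 0 were called by limma in Hep-3B (8 at an unadjusted p under 0.05, against 17.7% of all genes) and 3 higher and 1 lower in Huh7 (5.75% and 7.73% of all genes), with medians of 0.11 and 0.20. HMOX1, heme oxygenase, rose in Huh7 by 0.73 (limma adjusted p = 0.0122), with 8.90 and 8.80 in shKLHL23 against 8.01 and 8.24 in shLuc arrays. The chaperone HSPH1 rose by 0.69 (limma adjusted p = 0.005) and GCLM, a subunit of the enzyme that starts glutathione synthesis, by 0.44 (limma adjusted p = 0.033), while TXNRD1, thioredoxin reductase, fell by 0.66 (limma adjusted p = 0.00705). In Hep-3B the largest differences of that list were -1.54 for the cystine transporter SLC7A11 (limma adjusted p = 0.177) and 0.55 for DNAJB1 (limma adjusted p = 0.13). In Huh7, SLC7A11 differed by -1.81 without a call (limma adjusted p = 0.055), with 7.16 and 8.63 in shKLHL23 against 9.69 and 9.73 in shLuc arrays.

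Glucocorticoid response genes, 11 of 12 measured, had 0 calls by limma in Hep-3B (6 at an unadjusted p under 0.05, against 17.7% of all genes) and 3 lower in Huh7 (7.73% of all genes), with medians of -0.10 and -0.38. TSC22D3, a glucocorticoid-induced leucine zipper gene, fell in Huh7 by 1.81 (limma adjusted p = 0.0211), with 5.86 and 5.83 in shKLHL23 against 7.66 and 7.65 in shLuc arrays, and differed by -1.41 in Hep-3B (limma adjusted p = 0.121). NR3C1, the glucocorticoid receptor, fell in Huh7 by 0.61 (limma adjusted p = 0.0299) and FKBP5 by 0.38 (limma adjusted p = 0.0195). In the interleukin 6 acute phase list, 14 of 18 were measured, with 0 calls by limma in Hep-3B (4 at an unadjusted p under 0.05) and 2 higher and 2 lower in Huh7, and medians of -0.07 and 0.25. In Hep-3B, SERPINA3, an acute phase protease inhibitor, differed by -1.36 (limma adjusted p = 0.0965), with 11.40 and 10.01 in shKLHL23 against 12.09 and 12.04 in shLuc arrays. In Huh7, IL6R, the interleukin 6 receptor, rose by 0.81 (limma adjusted p = 0.0172) and the fibrinogen chain gene FGA by 0.38 (limma adjusted p = 0.0379), while HAMP, hepcidin, fell by 1.14 (limma adjusted p = 0.00744) and IL6ST, the shared signal chain of the receptor, by 0.68 (limma adjusted p = 0.0253).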

How the data were processed

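RNA of 8 cell line samples was hybridised to Affymetrix arrays. Per the submitters' processing notes, the authors used RMA and Affymetrix Expression Console 1.2, and the deposited table is on a log2 scale; other settings are not given in the sources used here. RMA equalises array distributions, shrinks differences of dim probe sets and hides changes in total RNA per cell. The platform annotation paired 41097 of 54675 probe sets with 1 symbol, 1801 with several and 11777 with none; 41043 were looked up in RefSeq (GRCh38.p14), which changed 0 symbols. A gene was represented by its single-symbol probe set with the highest mean over the 8 arrays, giving 19775 genes, with no filter on level.

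A group-means model was fitted to all 8 arrays with limma 3.58.1 (lmFit, eBayes) in R 4.3.3, with p-values adjusted by Benjamini-Hochberg over all genes or all probe sets. A call is an adjusted p under 0.05. The fit was run on simulated data with independent normal noise for each gene and changes set in Huh7 shKLHL23 only. That setting holds no shifts of whole arrays, so it does not show how the fit deals with them. The number of arrays limits the precision. The members and lists were chosen with earlier results of these data known. Named genes were all members, KLHL23, all other measured metallothioneins, up to 4 called genes per list and knockdown contrast by size of difference (2 largest where none was called), and the 5 genes most alike to the metallothionein mean. 12 gene lists were used, 5 of them cell type markers. Alternatives covered normalization, level filter, probe set choice, spread estimate, array weights, fitting 1 line alone, the replicate block and leaving out each array.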

Additional observations from a re-analysis of the deposited data

Results flagged for a closer look

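Of 118 measured list genes, 13 had both knockdown arrays above both controls in one line and below both in the other, as 8.3% of all genes did, and the Huh7 minus Hep-3B difference of the knockdown differences passed limma's test for 1 of them, ATP7B. Among the named genes that did not pass, it was 1.84 for SERPINA3 (limma adjusted p = 0.128), 1.47 for FGB (limma adjusted p = 0.0773), 0.59 for FGA (limma adjusted p = 0.0967), 0.62 for PECAM1 (limma adjusted p = 0.179) and 0.35 for KDR (limma adjusted p = 0.362). The KDR values lie near 2.3 to 2.5, the dim end of the arrays.

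The difference passed limma's test for the cholangiocyte keratin KRT19, at 1.14 (limma adjusted p = 0.0476), and for the copper exporter ATP7B, at -0.93 (limma adjusted p = 0.0483), which was chosen after its values were seen. ATP7B had 8.17 and 8.17 in Huh7 shKLHL23 against 8.49 and 8.56 in Huh7 shLuc arrays, and 8.57 and 8.94 in Hep-3B shKLHL23 against 8.15 and 8.22 in Hep-3B shLuc arrays.

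The dimmest of the SLC30A1 probe sets moved opposite ways in the lines with a difference of 0.53, which was not tested because SLC30A1 was chosen on these contrasts. Groups of 2 arrays allow no check for a single outlying array.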

How the results depend on the processing

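Of the 10 genes, 0 were called in Hep-3B when either Hep-3B shLuc array was left out, or when Hep-3B was fitted alone (0 genes called in all). As the knockdown contrasts chose these genes, nothing is read from their knockdown counts here or below. With the _x_at probe sets left out, MT1G and MT1M were the only metallothionein genes that kept a probe set, so the others could not be called. Then 1 member gene was called higher in each line, and 0 were called lower in the control cell comparison. MT1G, by its dim probe set, then gave 0.20 in Hep-3B, 0.21 in Huh7 and, reversed, 0.0217 (limma adjusted p = 0.907) between control cells. MTF1 reversed in that comparison to -0.0613 (limma adjusted p = 0.716) with the mean of its probe sets and to -0.14 (limma adjusted p = 0.61) without Huh7 shLuc replicate 3 (range over left-out arrays -0.14 to 0.0889). MT1X no longer passed with the mean of its probe sets (-0.43, limma adjusted p = 0.0836). The causes were not tested.

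Leaving out arrays gave 0 to 1134 genes called in Hep-3B (137 with all arrays), 562 to 3037 in Huh7 (2666), 7 to 513 for the difference between the lines (249) and 4504 to 7049 between control cells (6457). 1134 was reached without Hep-3B shKLHL23 replicate 1 and 16 without replicate 3. Called member genes ran from 0 to 7 in Hep-3B, 6 to 7 in Huh7 and 5 to 6 lower in control cells, and called list genes from 0 to 17 in Hep-3B (2) and 4 to 29 in Huh7 (22).

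Genes called in Hep-3B came to 268 with dim genes left out, 850 with an intensity trend and robust moderation and 671 with array weights. List genes called there came to 5, 11 and 8 under these settings, to 0 with Hep-3B fitted alone, and to 3 with further quantile normalization and 1 without _x_at probe sets. Fitting Huh7 alone gave 1578 genes there. The difference between the lines gave 387 with dim genes left out and 560 with the trend. Fitting every probe set gave 623 in Hep-3B, 4643 in Huh7, 510 for the difference between the lines and 14085 between control cells.

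The labels do not say whether arrays with the same replicate number were handled together. Same-numbered deviations correlated at -0.0704 in Hep-3B and 0.0617 in Huh7, which cannot decide this. With the replicate number as a block, 423 genes were called in Hep-3B, 8 of them in the lists, and 2328 in Huh7.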

Other observations

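The 5 genes outside the metallothionein members whose within-line values were most alike to the metallothionein mean over the 8 arrays, among 11432 genes with a mean over 5, were GOLGA3 (Pearson r 0.997), MT1HL1 (0.995), SCAMP5 (0.994), PRXL2B (0.992) and BTRC (0.992). The metallothioneins were chosen for their knockdown difference, which stays in these values, so they are descriptions of a like difference between the groups. GOLGA3, a Golgi protein gene, differed between knockdown and control by 0.52 in Hep-3B and 0.42 in Huh7, SCAMP5 by 0.37 and 0.35, PRXL2B by 0.40 and 0.37, and BTRC, a ubiquitin ligase subunit, by 0.34 and 0.36.

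The 10 measured protein-coding genes nearest the metallothionein cluster, 5 on each side, were chosen by position after the values were seen. They had 0 calls in Hep-3B, with differences from -0.28 to 0.28. Of all genes, 0.536% were called higher and 0.157% lower in Hep-3B, and 5.75% higher and 7.73% lower in Huh7. In Huh7, OGFOD1 fell by 0.64 (limma adjusted p = 0.00751) and HERPUD1 fell by 0.70 (limma adjusted p = 0.00748), and the other 8 were not called.

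TTR, the hepatocyte gene of the thyroid hormone carrier, rose in Hep-3B by 1.58 (limma adjusted p = 0.0148) and in Huh7 by 1.23 (limma adjusted p = 0.00524), the one hepatocyte marker called in each line. In Huh7 the cholangiocyte markers KRT19 and EPCAM rose by 1.32 (limma adjusted p = 0.00212) and 0.36 (limma adjusted p = 0.0293), and SOX9 fell by 0.56 (limma adjusted p = 0.0208).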
